A study of Mus musculus with 18 samples.

Results

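Gene expression was compared along an ordered series of Cpeb4 genotypes, from WT through CPEB4 GT/+ to CPEB4 KO, in mouse cortex and striatum. For each of 12822 genes the log2 values of an animal's 3 RNA fractions were averaged, and a straight line was fitted over the genotype order (0, 1, 2) with 2 animals per genotype. The genes described are those whose mean moved in 1 direction at both steps, WT to CPEB4 GT/+ and CPEB4 GT/+ to CPEB4 KO, in each of the 3 fractions. There were 242 such genes among 12822 (1.89%), of which 180 stepped up (1.4%) and 62 stepped down (0.484%). All 18 arrays of the series were used.

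Cortex and striatum were dissected together from 6 mice aged 6 weeks. The groups were 2 WT mice, 2 CPEB4 GT/+ mice, which carry a GT allele of Cpeb4 beside a normal one, and 2 CPEB4 KO mice. From each animal, total RNA (INPUT) was profiled beside a fraction released from poly(U) agarose with 25% formamide, enriched for short poly(A) tails (WASH), and a fraction released with 90% formamide, enriched for long tails (ELUTED). The labels do not say whether the KO mice carry the same allele as the CPEB4 GT/+ mice, and they give no strain background, so the order is one of genotype labels and not of copies of 1 known allele. The animals, not the arrays, are the replicates, because the 3 fractions of an animal share its RNA.

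The CPEB4 protein binds RNA in the cytoplasm, where it recognises U-rich cytoplasmic polyadenylation elements near the 3′ end of mRNAs. Through them it acts on the length of the poly(A) tail and on translation. It belongs to a family with CPEB1, CPEB2 and CPEB3, and all of them are expressed in neurons.

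The arrays were similar in scale, with medians from 6.32 to 6.48 on the log2 scale. The 2 animals of a group correlated across probe sets, which are not independent replicates, at r = 0.988 to 0.994, except in CPEB4 GT/+ ELUTED (r = 0.966) and CPEB4 KO INPUT (r = 0.979). The Actb 3′ minus 5′ difference, a sign of RNA quality, ran from -0.469 to -0.178 in WT, from -0.476 to -0.171 in CPEB4 GT/+ and from -0.417 to -0.059 in CPEB4 KO. Its part in the results was not tested. In this bulk tissue, fewer cells of a type and less RNA per cell cannot be told apart.

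Cpeb4 itself fell with genotype and was the only gene of 12822 (0.0078%) to pass the trend test. In INPUT its log2 value was 8.15 and 7.62 in the 2 WT mice, 7.31 and 7.002 in the CPEB4 GT/+ mice and 6.62 and 6.91 in the CPEB4 KO mice. In WASH the values were 8.73 and 8.75, then 8.19 and 8.40, then 7.45 and 7.74. In ELUTED they were 7.67 and 7.86, then 7.44 and 6.50, then 5.94 and 5.79. In every fraction both WT mice lay above both heterozygotes, and these above both CPEB4 KO mice. The animal means averaged 8.13, 7.47 and 6.74, so that 47.3% of the whole difference was reached at the first step.

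The slope of Cpeb4 was -0.69 per genotype step (SE 0.056, limma adjusted p = 0.00324). For this single value the two-sided exact permutation test over the 6 animals gave p = 0.0222, the smallest the design allows. The call rested on both WT animals: without the first the slope was -0.68 (adjusted p = 0.060), and without the second it was -0.72 (adjusted p = 0.0577). The other 2 Cpeb4 probe sets also stepped down in all 3 fractions, with CPEB4 KO minus WT at -0.86 and -1.26, against -1.39 for the probe set used. Signal remained in CPEB4 KO, where the probe set used lay above the filter of 5.52 in all 6 arrays. The sources used here do not state where the alteration lies relative to these probe sets, so the remaining signal cannot be read as full-length mRNA.

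**Figure D1:**
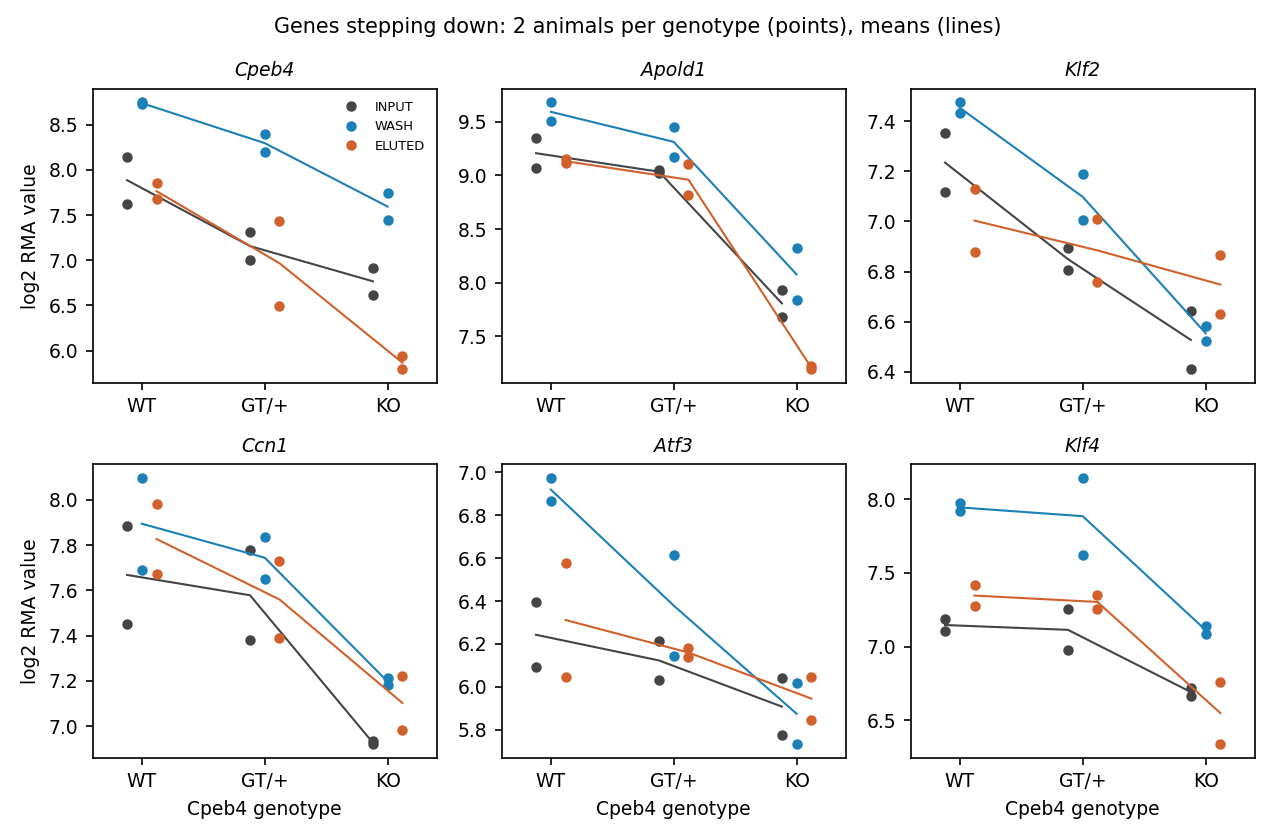
Log2 values (vertical axes) of 6 genes that stepped down, by genotype (horizontal axes), coloured by fraction, with 1 point per animal and lines through the means of 2 animals. Cpeb4 descends in near-even steps from 8.13 to 6.74 in the mean over fractions, whereas Apold1 and Klf4 are lower mainly between GT/+ and KO.

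No other gene passed the trend test, and the lowest adjusted p among them was 0.157. At an unadjusted p under 0.05 there were 760 genes (5.93%), 447 with a positive slope (3.49%) and 313 with a negative one (2.44%). Because the line is fitted over equal groups in even steps, its slope is the CPEB4 KO minus WT difference divided by 2, and the heterozygotes enter only through the spread. The stepping rule uses the same values as the slope, so the p-values of stepping genes below are given as descriptions.

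Requiring all 3 fractions was a narrow rule. Within 1 fraction, 3297 genes stepped up in INPUT (25.7%), 2817 in WASH (22%) and 2452 in ELUTED (19.1%), and 2263 (17.6%), 1346 (10.5%) and 2981 (23.2%) stepped down. In the means over fractions 4383 genes stepped (34.2%). Most of the 242 genes moved little: the CPEB4 KO minus WT difference was under 0.25 in size in 167 of them, with a median of 0.20 in the genes stepping up and -0.21 in those stepping down. It reached 0.58 in size in 14, 6 up and 8 down, against 45 of all genes (0.351%). At the edge of the rule, the smallest of the 6 steps was 2.42e-05 in Atp6v0a2, just inside, and -9.91e-06 against the direction of change in Git1, just outside. Only 9 genes had a smallest step of at least 0.1: Papss2, Magi1, Zxdc, Fosb and Phlda1 going up, and Cpeb4, Apold1, Atf3 and Klf2 going down.

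Only Cpeb4 and Apold1 (2 genes, 0.0156%) stepped with no overlap between the animals of neighbouring genotypes in any of the 3 fractions. Apold1 encodes a protein of vascular endothelial cells and is also an early response gene. Its INPUT values were 9.35 and 9.07 in WT, 9.05 and 9.02 in CPEB4 GT/+ and 7.69 and 7.93 in CPEB4 KO. In WASH they were 9.68 and 9.51, then 9.45 and 9.18, then 7.84 and 8.32, and in ELUTED 9.15 and 9.12, then 9.10 and 8.82, then 7.22 and 7.19. The heterozygotes lay just under WT, and the CPEB4 KO mice more than 1 log2 unit lower on average. The CPEB4 KO minus WT difference of the animal means was -1.61, the largest negative difference of all genes kept, and the first step held 12.9% of it (slope -0.81, SE 0.121, limma adjusted p = 0.157).

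The early response genes Atf3, Ccn1 and Klf4, whose RNA many stimuli induce quickly, also stepped down, as did Klf2. The promoters of Apold1 and Ccn1, which had the most negative slopes among these 5 genes, and of Klf2, which was apart between genotypes in INPUT and WASH, are shown so that the sequence before their starts can be compared. They are the 200 bases before the RefSeq start on GRCm38.p6, written 5′ to 3′ on the gene's strand, with a TATAAA match in capitals. Apold1 lies on the + strand (chr6:134981801-134982000), Ccn1 on the - strand (chr3:145649986-145650185) and Klf2 on the + strand (chr8:72318862-72319061).
Apold1: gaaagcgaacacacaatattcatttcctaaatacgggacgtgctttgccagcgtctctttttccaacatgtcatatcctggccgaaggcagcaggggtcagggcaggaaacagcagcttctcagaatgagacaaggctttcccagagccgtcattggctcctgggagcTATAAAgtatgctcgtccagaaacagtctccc
Ccn1: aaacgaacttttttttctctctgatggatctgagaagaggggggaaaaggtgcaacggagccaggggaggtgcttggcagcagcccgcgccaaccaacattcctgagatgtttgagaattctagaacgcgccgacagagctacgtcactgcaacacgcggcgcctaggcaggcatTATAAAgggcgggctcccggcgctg
Klf2: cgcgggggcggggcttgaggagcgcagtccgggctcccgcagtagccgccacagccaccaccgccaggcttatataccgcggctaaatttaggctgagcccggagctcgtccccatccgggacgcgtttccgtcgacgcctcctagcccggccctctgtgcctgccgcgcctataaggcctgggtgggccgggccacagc
The match began 32 bases before the start in Apold1 and 25 bases before it in Ccn1, and Klf2 had none in this window. The windows of Atf3 and Klf4, which are not shown, had none either.

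Motifs were searched on both strands of these windows, namely the cAMP response element TGACGTCA, the AP-1 site TGANTCA, the CArG box and the TATA box TATAAA, which can lie inside a CArG box. Of 62 genes stepping down, 53 had a window. TATAAA was present in 9 of them (17.0%), in 10 of 147 genes stepping up (6.8%), in 6.68% of the 10307 genes kept with a window and in 11.7% of all genes in the table. The AP-1 site was present in 3 genes stepping down (5.66%) and in 4.74% of the genes kept, the CArG box in 1 (1.89%) and in 1.16%, and TGACGTCA in 0 and in 2.86%. A match is a description and not a site in use, and a missing match says only that these letters are not in the window.

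Klf2 encodes a zinc finger transcription factor known from endothelial cells. Its INPUT values were 7.12 and 7.35 in WT, 6.89 and 6.81 in CPEB4 GT/+ and 6.64 and 6.41 in CPEB4 KO. In WASH they were 7.48 and 7.43, then 7.19 and 7.01, then 6.52 and 6.58, and in ELUTED 7.13 and 6.88, then 7.01 and 6.76, then 6.86 and 6.63. The genotypes were apart in INPUT and WASH and overlapped in ELUTED. The descent was near even, with 46.2% of the CPEB4 KO minus WT difference of -0.62 at the first step (slope -0.31, SE 0.042, limma adjusted p = 0.157). In WASH alone Klf2 was called beside Cpeb4, the only 2 genes there (0.0156%), where 5.43% of all genes had an unadjusted p under 0.05. In INPUT alone 0 genes were called and 11.4% had such a p, and in ELUTED alone 0 and 7.29%.

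Ccn1, which encodes a secreted matricellular protein, showed overlap of WT and CPEB4 GT/+ and lower values in CPEB4 KO. Its INPUT values were 7.88 and 7.45, then 7.78 and 7.38, then 6.92 and 6.94. The WASH values were 8.10 and 7.69, then 7.84 and 7.65, then 7.21 and 7.18, and the ELUTED values 7.98 and 7.67, then 7.73 and 7.39, then 6.98 and 7.22. The CPEB4 KO minus WT difference was -0.72, with 23.4% of it at the first step, and a second Ccn1 probe set stepped down too, with a difference of -0.97. Klf4, another zinc finger factor, had 6.49% of its difference of -0.69 at the first step. Its CPEB4 KO values ran from 6.34 to 7.14 and lay below every other value of the same fraction. Atf3, a stress-induced factor of the ATF family, had a difference of -0.58 in near-even steps (46.5% at the first). Its WASH values of 6.98 and 6.86, 6.14 and 6.61, and 5.73 and 6.02 did not overlap, whereas its INPUT and ELUTED values did.

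The list of early response genes held stepping members in both directions. Of 29 such genes kept, 4 stepped down (Apold1, Atf3, Ccn1 and Klf4), which is 13.8%, against 0.484% of all genes, and 3 stepped up (Bdnf, Fosb and Trib1), which is 10.3%, against 1.4%. Together 24.1% of the list stepped, against 1.89% of all genes, and the list was assembled with these data in view. Of its members 0 passed the trend test, and the median slope was 0.02, against 0.0035 over all genes. The arrays were also scaled on medians, quantiles or hybridisation controls. Apold1, Atf3, Ccn1 and Fosb stepped under all 3 of these scalings, Klf4 and Trib1 under 2 and Bdnf under 0. The other probe set of Bdnf and that of Trib1 did not step. Neuronal activity genes such as Egr1 (slope -0.03), Fos (-0.12) and Arc (0.12) did not step in all fractions. Fosb, a partner in AP-1, went up in near-even steps: 9.28 and 9.48, 9.42 and 9.56, and 9.62 and 9.80 in INPUT (slope 0.14, SE 0.049, limma adjusted p = 0.787). The WT and CPEB4 GT/+ values of Fosb overlapped in all 3 fractions, and those of CPEB4 GT/+ and CPEB4 KO in WASH and ELUTED.

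Other vascular genes gave no such step. Of 21 endothelial and mural genes kept, Apold1 alone stepped down (4.76%, against 0.484% of all genes) and 0 stepped up (against 1.4%). The median slope of the animal means was 0.06, with 15 of 21 slopes above 0, against 6778 of 12822 over all genes. The direction turned with the fraction: the median was 0.09 in INPUT and 0.06 in WASH, and -0.03 in ELUTED. In ELUTED 14 of 21 slopes lay below 0, against 6643 of 12822 over all genes. The endothelial markers Cldn5 (slope 0.06), Pecam1 (0.07), Cdh5 (0.04) and Flt1 (-0.01) gave no step in all fractions.

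**Figure D2:**
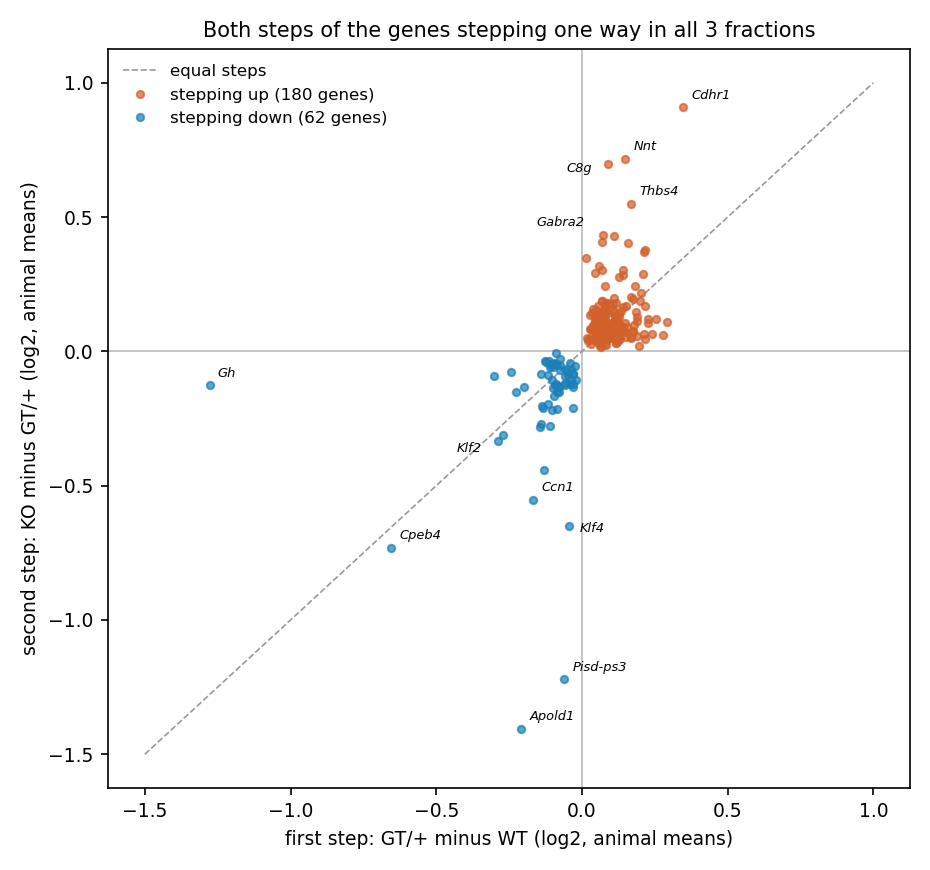
First step (CPEB4 GT/+ minus WT, horizontal axis) against second step (CPEB4 KO minus CPEB4 GT/+, vertical axis) in log2 units of the animal means, for the 180 genes stepping up and the 62 stepping down, with equal steps as a dashed line. Cpeb4 lies near the line, Apold1 and Pisd-ps3 far below it with most of the change at the second step, and Gh far to the left with most at the first.

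The heterozygotes lay at different points between WT and CPEB4 KO. The median share of the CPEB4 KO minus WT difference reached at the first step was 47.5% in genes stepping up and 40.01% in genes stepping down. At most 30% was reached in 31 genes up and 15 down, and at least 70% in 21 up and 8 down. A test of the heterozygotes against the midpoint of WT and CPEB4 KO called 0 of 12822 genes with limma and gave 558 at an unadjusted p under 0.05 (4.35%). Of the 242 stepping genes 6 had such a p (2.48%), namely Apold1, Pisd-ps3, Nnt, Klf4, Gh and Gabra2. The stepping rule itself places the heterozygotes between WT and CPEB4 KO, so this share cannot be compared with that over all genes.

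Pisd-ps3, Nnt and Gabra2 had most of their difference at the second step. Pisd-ps3 is a transcribed pseudogene related to phosphatidylserine decarboxylase, and probes may not separate it from related copies. Its values lay from 10.93 to 11.63 in WT and CPEB4 GT/+ and from 9.65 to 10.23 in CPEB4 KO, with 4.72% of the difference of -1.28 at the first step. Nnt encodes the mitochondrial transhydrogenase. Its INPUT values were 8.59 and 8.40, then 8.56 and 8.71, then 9.95 and 9.55. Its WASH values were 9.17 and 9.10, then 9.22 and 9.59, then 9.88 and 10.10, and its ELUTED values 8.17 and 8.59, then 8.63 and 8.20, then 9.01 and 8.72. Both CPEB4 KO mice lay above all others in each fraction, and 17.2% of the difference of 0.87 was reached at the first step (slope 0.43, SE 0.065, limma adjusted p = 0.157).

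Gabra2, a GABA-A receptor subunit, stood at 9.91 and 9.91, then 9.96 and 9.99, then 10.25 and 10.50 in INPUT. The CPEB4 KO mice were again above all others in the 3 fractions, and the first step held 14.3% of the difference of 0.51. Nnt, Gabra2, Cyfip2 and Pisd-ps3 belong to a list of 15 genes kept that are known to differ in expression or sequence between mouse strains or substrains. Of that list 3 stepped up (Cyfip2, Gabra2 and Nnt) and 1 stepped down (Pisd-ps3), while 11 did neither. The 4 make up 26.7% of the list, against 1.89% of all genes. The median slope of the list was -0.01, which turned to 0.06 with the hybridisation controls as the scale. The list was assembled with these data in view. Strain background is not in the labels, and it cannot be told apart from genotype here.

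Gh, which encodes growth hormone of the pituitary, showed the opposite shape. Its INPUT values were 7.59 and 6.86 in WT, 5.83 and 6.44 in CPEB4 GT/+ and 5.92 and 5.83 in CPEB4 KO. All WT values of the 3 fractions, from 6.86 to 7.91, lay above all others, which ran from 5.61 to 6.46, and 91.1% of the difference of -1.40 was reached at the first step. Of the 6 pituitary genes kept Gh alone stepped (16.7%, against 0.484% of all genes stepping down), and Pomc had a slope of -0.08 and Tshb of 0.04. Among the nonspecific control probe sets the highest mean was 5.61, close to the lower Gh values.

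Among the genes stepping up, Cdhr1 had the largest difference. It encodes a protocadherin of photoreceptors and of the olfactory bulb. Its INPUT values were 6.36 and 6.60 in WT, 6.64 and 6.48 in CPEB4 GT/+ and 7.31 and 7.74 in CPEB4 KO. In WASH they were 6.67 and 6.72, then 7.35 and 7.11, then 7.84 and 8.64, and in ELUTED 6.60 and 6.38, then 6.96 and 6.88, then 7.42 and 7.91. The genotypes were apart in WASH and ELUTED, and in INPUT WT and CPEB4 GT/+ overlapped. The slope was 0.63 (SE 0.091, limma adjusted p = 0.157), and 27.7% of the difference was reached at the first step. Of 17 genes kept that mark other brain regions, Cdhr1 alone stepped (5.88%, against 1.4% of all genes stepping up). Eomes, which marks olfactory bulb neurons among others, had a slope of 0.19. Over the 17 genes 7 slopes lay above 0 and 10 below, with a median of -0.02.

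The other genes with a difference of at least 0.58 were Zbtb16, Inhba, Thbs4 and C8g. Zbtb16 encodes a zinc finger repressor, and its values ran from 8.79 to 9.41 in WT, from 8.95 to 9.66 in CPEB4 GT/+ and from 9.38 to 10.11 in CPEB4 KO (slope 0.29, SE 0.061). Inhba encodes the activin beta A subunit and had a slope of 0.30 (SE 0.065, limma adjusted p = 0.484). In INPUT 1 CPEB4 GT/+ mouse (7.48) lay above 1 CPEB4 KO mouse (7.21), and the other, dimmer Inhba probe set had a difference of -0.04. Thbs4, a matricellular thrombospondin, had a slope of 0.36 (SE 0.102, limma adjusted p = 0.753). The second CPEB4 KO mouse lay below the second CPEB4 GT/+ mouse in WASH (7.36 against 7.37) and ELUTED (6.90 against 7.02). C8g, a complement component, rested on 1 array: the INPUT value of 1 CPEB4 KO mouse was 9.05, against 5.53 in the other and 5.38 to 6.19 on the remaining arrays.

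**Figure D3:**
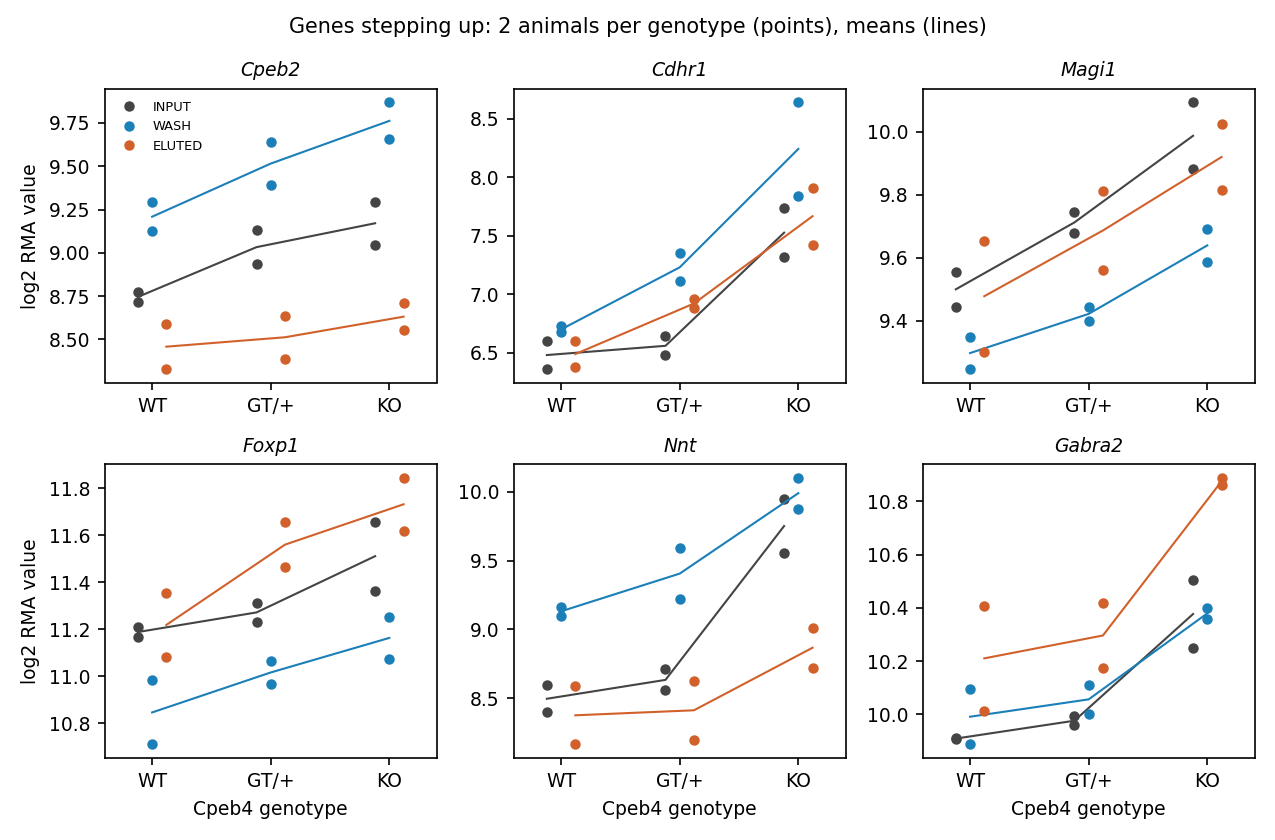
Log2 values (vertical axes) of 6 genes that stepped up, by genotype (horizontal axes), coloured by fraction, with 1 point per animal and lines through the means of 2 animals. Cpeb2, Magi1 and Foxp1 are higher at both steps, and Cdhr1, Nnt and Gabra2 differ mainly between GT/+ and KO.

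Cpeb2, a close relative of Cpeb4 on the list of poly(A) tail machinery, stepped up. In INPUT its values were 8.72 and 8.77 in WT, 8.93 and 9.13 in CPEB4 GT/+ and 9.05 and 9.30 in CPEB4 KO. In WASH they were 9.29 and 9.13, then 9.39 and 9.64, then 9.66 and 9.87, and in ELUTED 8.33 and 8.59, then 8.64 and 8.39, then 8.55 and 8.71. The genotypes were apart in WASH alone. The slope was 0.19 (SE 0.043), which did not pass (limma adjusted p = 0.484), and all 3 Cpeb2 probe sets stepped up in every fraction. Cpeb1 (slope 0.07) and Cpeb3 (0.13) did not step in all fractions. The 42 genes of poly(A) tail machinery kept include deadenylases, poly(A) polymerases and binding proteins. Cpeb2 and Tob1, an adaptor of deadenylases, stepped up (4.76%, against 1.4% of all genes). In ELUTED the CPEB4 GT/+ values of Tob1, 6.28 and 5.35, lay on either side of all its WT and CPEB4 KO values. The other, dimmer Tob1 probe set did not step and had a CPEB4 KO minus WT difference of -0.05. Cpeb4 alone stepped down (2.38%, against 0.484%), and the median slope of the list was 0.02.

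Magi1, Zxdc and Foxp1 stepped up, and Cpeb4 and Apold1 down, whichever of the 6 animals was left out and under all 3 other scalings of the arrays. They were the only 5 of the 242 genes to do so. Except for Cpeb4, all of them lie on chromosome 6. Promoter windows there begin at base 90369294 for Zxdc, 93912964 for Magi1, 99028299 for Foxp1 and 134981801 for Apold1. On chromosome 6, 14 of 666 genes kept stepped (2.1%, against 1.89% of all genes). Whether shared position or strain background plays a part was not tested. Magi1 encodes a scaffold of cell junctions. It stood at 9.56 and 9.44, then 9.68 and 9.74, then 9.88 and 10.09 in INPUT and at 9.35 and 9.25, then 9.40 and 9.44, then 9.59 and 9.69 in WASH, with no overlap in either. Foxp1, a forkhead factor of striatal projection and cortical neurons and an autism risk gene, stood at 11.17 and 11.21, then 11.23 and 11.31, then 11.36 and 11.66 in INPUT. Its slope was 0.19 (SE 0.050, limma adjusted p = 0.676), with 51.6% of the difference at the first step. Zxdc, which encodes a zinc finger protein, had a slope of 0.28 (SE 0.056, limma adjusted p = 0.423). Other probe sets did not all follow. Of 6 other Foxp1 probe sets 0 stepped, and CPEB4 KO minus WT was above 0 in 3 and below 0 in 3, from -0.29 to 0.17. The brightest of them, with a mean of 10.55, had a difference of -0.25, against 0.38 at the probe set used. Both other Zxdc probe sets, which were dimmer, had differences of -0.07 and -0.11. Of 3 other Magi1 probe sets 2 stepped up, and all 3 differences were positive, from 0.04 to 1.38.

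Papss2, an enzyme that makes the sulfate donor PAPS, had the largest smallest step of all genes stepping up, 0.132. Its slope was 0.21 (SE 0.052), with 48.2% of the difference at the first step. Phlda1, a pleckstrin homology domain gene, had a slope of 0.25 (SE 0.046). Neither passed the test (limma adjusted p = 0.597 and 0.423).

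Lists of cell types and synapses held from 0 to 2 stepping genes each, to be read beside 1.89% of all genes and 1.4% stepping up. Cortical excitatory genes had 1 of 20 kept (Camk2a, slope 0.06), which is 5.0%. Striatal projection genes had 1 of 19 (Foxp1) and GABA interneuron genes 1 of 19 (Dlx1, slope 0.12), 5.26% each. Postsynaptic genes had 2 of 27 (Camk2a and Gabra2), which is 7.41%. All of these stepped up. Of 5 other Camk2a probe sets 0 stepped. Their CPEB4 KO minus WT was above 0 in 3 and below 0 in 2, from -0.40 to 0.16, against 0.11 at the probe set used. Of 44 autism risk genes kept, Foxp1 and Naa15 (slope 0.06) stepped up (4.55%) and 0 stepped down, and the median slope was 0.02. Astrocyte (20 genes), oligodendrocyte (20), oligodendrocyte precursor (10), microglia (16), ependymal, choroid and meningeal (15), blood (7), presynaptic (25) and unfolded protein response genes (32) had 0 in either direction. Over all lists, 24 of the 242 stepping genes were members of at least 1.

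Ribosomal protein and oxidative phosphorylation genes had negative median slopes in ELUTED and medians near 0 in the other fractions. In ELUTED 67 of 68 cytosolic ribosomal protein genes had a negative slope, with a median of -0.34 per step, whereas the median was 0.01 in INPUT and 0.00 in WASH. Of 70 oxidative phosphorylation genes 66 had a negative slope in ELUTED, with a median of -0.35, against 0.03 in INPUT and 0.00 in WASH. Over all genes 6643 of 12822 slopes in ELUTED were negative, with a median of -0.0041. Under the 3 other scalings both ELUTED medians stayed between -0.36 and -0.31. With the hybridisation controls as the scale the median slope of all genes was 0.08 in INPUT, 0.13 in WASH and 0.02 in ELUTED. The mean ELUTED level of the ribosomal genes was 10.03 and 10.05 in WT, 10.15 and 9.43 in CPEB4 GT/+, and 9.64 and 9.10 in CPEB4 KO. The heterozygotes thus lay on either side of the WT level and overlapped with CPEB4 KO, and the lower one was on 1 of the 2 arrays of the group with the lowest correlation. Rpl3, Rpl41 and Rps24 of the first list (4.41%) and Ndufa3 of the second (1.43%) stepped down in all fractions, against 0.484% of all genes. Of the 3 other scalings, Rpl3 and Ndufa3 stepped under 2, Rps24 under 1 and Rpl41 under 0. Rps24 for example stood at 10.20 and 10.17, then 10.34 and 9.40, then 9.72 and 9.04 in ELUTED, and its INPUT values ran only from 10.86 to 10.98.

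**Figure D4:**
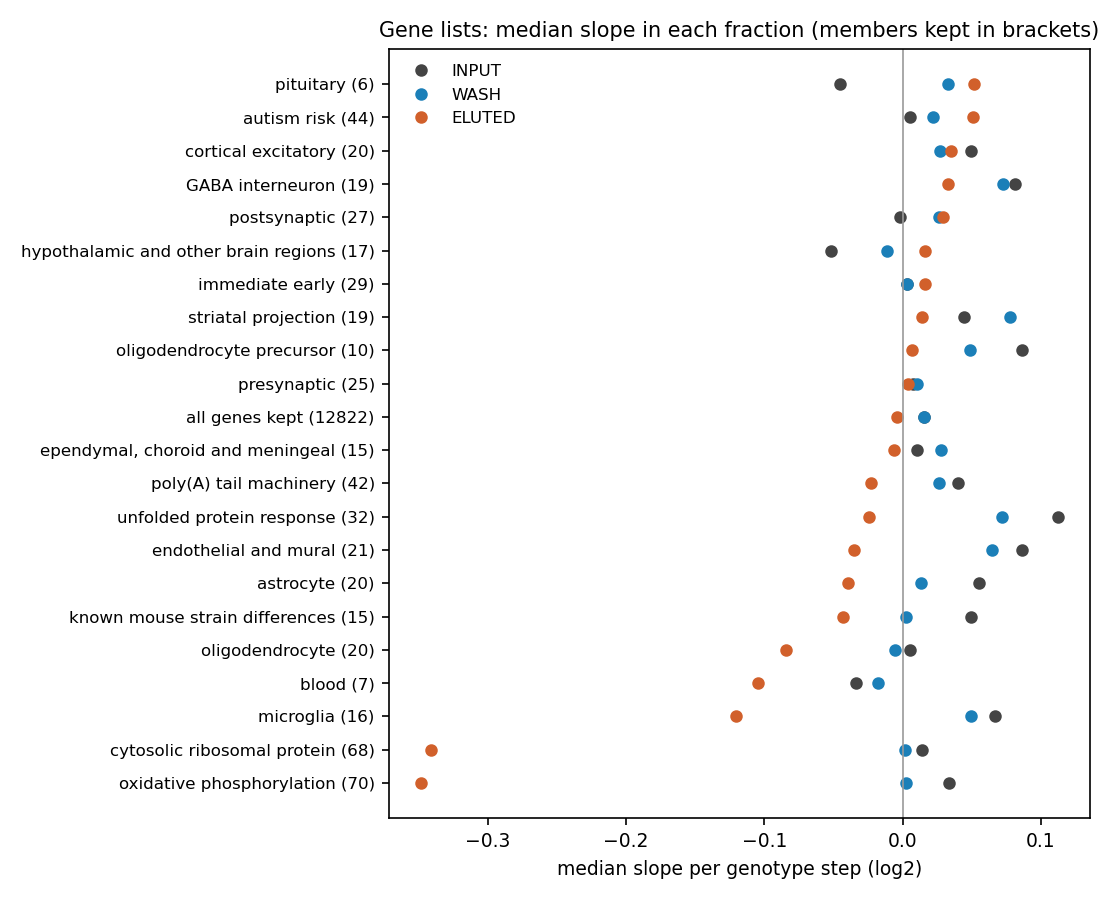
Median slope per genotype step in log2 units (horizontal axis) of the gene lists with at least 5 members kept and of all genes kept (vertical axis, members in brackets), with 1 point per fraction. Ribosomal protein and oxidative phosphorylation genes lie at -0.34 and -0.35 in ELUTED and near 0 in INPUT and WASH.

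The trend in the ELUTED over WASH ratio, which asks whether the slope differs between long-tail and short-tail RNA, called 0 genes with limma. At an unadjusted p under 0.05 it gave 1099 genes (8.57%), 245 up (1.91%) and 854 down (6.66%), and 14 of the 242 stepping genes were among them. Klf2 (0.32 per step) and Atf3 (0.34) were among those with a positive ratio slope: their descent was shallower in ELUTED than in WASH. The ratio slope of Cpeb4 was -0.38.

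Other probe sets of the same genes gave a look at values the rule had not used, from the same RNA. Of the 242 genes 122 had another probe set with a mean above the filter of 5.52, 207 in all. Dimmer probe sets were left out of these counts. Of the 207, 176 had a slope of the same sign (85.0%), against 65.7% for the other genes kept. In 23 of the 207 the probe set itself stepped the same way in all fractions (11.1%, against 1.58%). Genes beside Cpeb4 on chromosome 11 were looked at because they travel with an altered allele. Of 80 neighbours 25 were kept, with slopes from -0.19 to 0.06. Of these 25, 1 stepped down, Stc2, a secreted glycoprotein (slope -0.05), against 0.484% of all genes. Of 2 other Stc2 probe sets 0 stepped. Of the neighbours 0 stepped up, against 1.4% of all genes, and 0 passed the test. An unadjusted p under 0.05 was reached by Snrnp25 (slope -0.14) and Hba-a1 (-0.19), and by 5.93% of all genes. At the probe sets used, neither of the 2 stepped in all fractions. However, the 2 other, dimmer Hba-a1 probe sets both stepped down in all fractions. Their CPEB4 KO minus WT differences were -0.50 and -0.40, against -0.38 at the probe set used. Snrnp25 had means of 8.12, 8.27 and 8.41 in INPUT, and of 7.57, 7.32 and 6.41 in ELUTED, the only fraction where it fell. Hba-a1 differed most in ELUTED, with means of 12.51, 12.34 and 11.77, against 12.75, 12.76 and 12.57 in INPUT.

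The count and its direction depended on the scaling and on single animals. Of the stepping genes 74.4% went up as reported, 79.8% with arrays centred on their medians, 52.7% after quantile normalization and 99% when the hybridisation controls set the scale, where the median slope of all genes was 0.0716. Leaving out 1 animal gave from 100 genes, without the first CPEB4 GT/+ mouse, to 398, without the first CPEB4 KO mouse. Without the first CPEB4 GT/+ mouse 49 of the 242 genes still stepped (20.2%), and without the second 57 (23.6%).

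**Figure D5:**
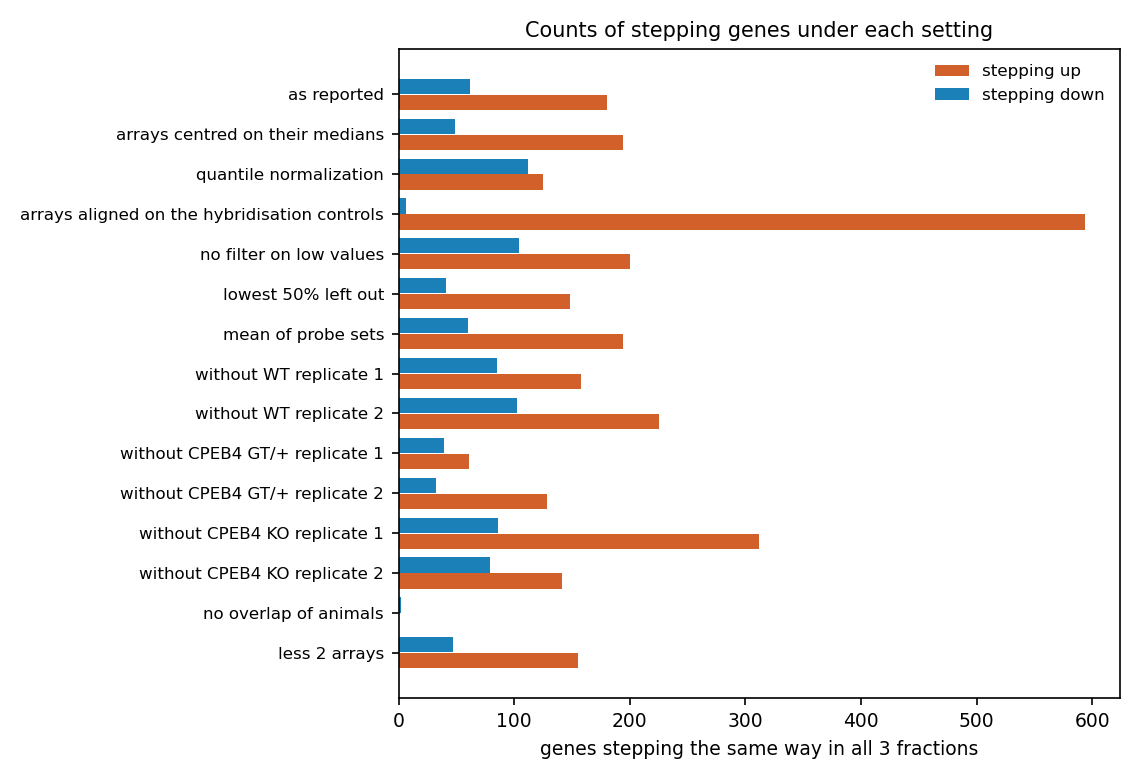
Number of genes stepping up and stepping down in all 3 fractions (horizontal axis) as reported and under each other setting (vertical axis). The bars for genes stepping up run from 0 where animals may not overlap to 594 when the hybridisation controls set the scale.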

How the data were processed

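The deposited table holds log2 values that the authors produced by RMA according to the submitters' processing notes, without a stated version. RMA sets the arrays on a common scale, which leaves differences in total RNA unmeasured. Amplification took 5 ng of RNA through 21 cycles, and 8 µg of the cDNA went on to labelling, per the labels' protocols. The series text calls the arrays PrimeView, whereas its probe set names have a PM mark that belongs to a different mouse array. The supplied annotation table gave 28898 of 45141 probe sets 1 gene symbol, 551 several and 15692 none (with 104 controls), and 28689 matched RefSeq (GRCm38.p6) by Entrez identifier. Each of 17097 genes was represented by its brightest probe set in the mean of 18 arrays. The lowest 25% by that mean (under 5.52) were left out, which left 12822 genes, 6407 of them with more than 1 probe set.

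Animal means over the 3 fractions were fitted with limma 3.58.1 (lmFit, eBayes) in R 4.3.3, with genotype order as a number (4 residual degrees of freedom) and, for departure from a line, with genotype means (3). The random block used statmod 1.5.0. Tests were two-sided, with Benjamini-Hochberg adjustment over all 12822 genes at 0.05, and SE are limma's moderated ones. Precision is limited by the number of arrays and, more closely, by the 2 animals per genotype. The code was tested on simulated data.

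Named genes are Cpeb4; stepping genes with a CPEB4 KO minus WT difference of at least 0.58, up to 10 per direction; the 5 per direction with the largest smallest step; and up to 2 stepping members of each of 22 lists with the largest slope. Other members of lists and neighbours of Cpeb4 are named as examples, chosen after their values were seen. The members and lists were chosen with earlier results of these data known. The replicate numbers do not pair the animals: deviations from the genotype means correlated at 0.0325 and 0.0399 for WT with the other genotypes and at -0.169 between those.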

Additional observations from a re-analysis of the deposited data

How the results depend on the processing

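The trend count of 1 gene (Cpeb4) was 1 under the 3 other scalings, both filters, the mean of probe sets, an intensity trend in eBayes and the replicate number as a block, where the Cpeb4 slope was -0.69 (adjusted p = 0.00830); since the numbers do not pair the animals, the block is given for completeness. The counts of 0 for departure from a line and for the ratio were also 0 with the block. Leaving out 1 animal gave 0 to 1 trend genes and Cpeb4 slopes from -0.72 to -0.66. The trend count was 22 with 18 arrays and the animal as a random block. The consensus correlation within an animal was 0.057 there, so this fit counts the 3 fractions of an animal almost as separate replicates. With genotype means in place of a line the trend count was 4 (Apold1, Cpeb4, Nnt and Pisd-ps3). It was 0 in INPUT alone (Cpeb4 slope -0.56, limma adjusted p = 0.292), 2 in WASH alone and 0 in ELUTED alone (-0.95, limma adjusted p = 0.635). Without CPEB4 GT/+ 2 ELUTED and CPEB4 KO 1 INPUT, an alternative chosen after seeing the data, the random block gave 23, and the stepping genes numbered 155 up and 47 down.

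Of stepping genes, 112 went down after quantile normalization, 104 without a filter and 41 with the lowest 50% left out. Alignment on the hybridisation controls gave 600, 594 up and 6 down. Stepping of the means over fractions alone gave 4383, 2296 up and 2087 down, and a rule of no overlap gave 2, 0 up and 2 down. Leaving out 1 animal gave 100 to 398 in all, 61 to 312 up and 32 to 102 down, and 0 to 31 genes departing from a line. The slope of Naa15 ran from -0.0062, without CPEB4 KO replicate 2, to 0.11, without CPEB4 KO replicate 1. The cause of these shifts was not tested. With 2 animals per genotype, groups that miss the threshold are not shown to be alike.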

Other observations

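Probe sets without a gene name gave a similar share of stepping signals. Of 8835 kept, 80 stepped up and 69 stepped down (1.69% together), 0 passed the trend test in limma and 654 had an unadjusted p under 0.05. On the numbered chromosomes and X, stepping genes made up from 0.843% of the genes kept on chromosome 1 to 3.05% on chromosome 5, where 25 of 820 stepped, with 16 of 1067 on chromosome 11, which holds Cpeb4.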
